A study of Mus musculus with 6 samples.

Results

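The genes described here encode matrix metalloproteinases (MMPs), zinc-dependent enzymes that cut extracellular matrix and cell surface proteins, and the tissue inhibitors of metalloproteinases (TIMPs) that block them. They were chosen by name: 9 genes, of which 6 are proteases (Mmp2, Mmp9, Mmp11, Mmp14, Mmp15 and Mmp23) and 3 are inhibitors (Timp1, Timp2 and Timp3). Of these, 8 were represented by at least 1 probe set paired with that symbol alone, out of 18193 genes so represented, and Mmp15, a membrane-bound protease, was not analysed here. All 8 reached the detection floor often enough to be tested, alongside 13335 genes in all.

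Adult samples were Lyz2+/EpCAM+ cells isolated from adult mouse lung, which the series names ATII, that is alveolar type II cells. E18 samples were Muc1+/Pdpn+ cells flow sorted at embryonic day 18 (E18) from mouse lung and named bipotent progenitors in the series. Each population had 3 biological replicates, and each replicate was hybridised to 1 Affymetrix mouse expression array after 2 cycles of amplification. Age, sort and population differ together between the groups, and strain, sex, the pooling of animals and the means of detecting Lyz2 were not given in the sources used here.

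MMPs are made as inactive proenzymes in which a cysteine of the propeptide covers the catalytic zinc. Some are opened outside the cell by other proteases, and others, such as MMP14 and MMP11, are cut by furin-type convertases on their way to the surface. MMP14 on a cell surface binds TIMP2, which in turn holds proMMP2 for activation by a neighbouring MMP14, so an inhibitor takes part in switching on a protease. In the developing lung these enzymes are known for matrix remodelling during branching and the formation of air spaces.

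In 4 of these genes, Mmp11, Mmp14, Timp1 and Timp3, every adult array lay below every E18 array in the brightest probe set. In these probe sets adult replicate 3 was the highest of the adult arrays. Their proximal promoters are shown because they are members with a shared pattern over the arrays. Each line gives the 250 bases before the annotated start of the gene, 5′ to 3′ on the gene's strand, from RefSeq on GRCm38.p6, and capitals mark matches to a GC box (GGGCGG, searched on both strands).
Mmp11: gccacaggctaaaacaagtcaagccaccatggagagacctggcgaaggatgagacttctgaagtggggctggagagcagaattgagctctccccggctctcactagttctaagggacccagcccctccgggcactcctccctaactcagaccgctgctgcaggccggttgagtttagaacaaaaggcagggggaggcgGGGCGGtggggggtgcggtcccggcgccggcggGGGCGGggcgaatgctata
Mmp14: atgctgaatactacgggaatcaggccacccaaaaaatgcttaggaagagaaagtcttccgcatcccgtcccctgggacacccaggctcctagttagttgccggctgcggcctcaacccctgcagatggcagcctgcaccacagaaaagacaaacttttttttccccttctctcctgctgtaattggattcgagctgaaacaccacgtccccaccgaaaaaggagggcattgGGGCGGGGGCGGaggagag
Timp1: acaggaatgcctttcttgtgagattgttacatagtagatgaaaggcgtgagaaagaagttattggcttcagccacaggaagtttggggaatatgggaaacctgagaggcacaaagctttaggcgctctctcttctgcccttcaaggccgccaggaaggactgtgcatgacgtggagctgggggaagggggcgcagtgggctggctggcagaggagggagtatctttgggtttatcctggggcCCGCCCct
Timp3: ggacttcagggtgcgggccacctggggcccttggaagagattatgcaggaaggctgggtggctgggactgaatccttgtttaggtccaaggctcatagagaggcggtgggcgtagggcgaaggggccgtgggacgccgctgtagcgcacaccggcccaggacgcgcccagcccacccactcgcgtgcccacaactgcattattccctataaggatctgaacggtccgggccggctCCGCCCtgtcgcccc
The Mmp11 window is chr10:75932503-75932752 on the minus strand, that of Mmp14 is chr14:54431348-54431597 on the plus strand, that of Timp1 is chrX:20869916-20870165 on the plus strand and that of Timp3 is chr10:86300162-86300411 on the plus strand. A GC box, the sequence bound by factors of the Sp1 family, was present in all 4 windows, and 32.7% of 32851 promoter windows of the same length held one. In Mmp11 the matches ended 47 and 14 bases before the start, in Mmp14 they ended 14 and 8 bases before it and abutted each other, and in Timp1 and Timp3 the single matches, on the opposite strand, ended 3 and 10 bases before it. Neither TGANTCA, the AP-1 site through which many MMP genes are known to respond to growth factors, nor the TATA box TATAAA was found on either strand of the 4 windows, and 6.75% and 12.4% of all windows held them. No motif searched overlapped another. Among all 7 members with a window listed, 6 held a GC box, including Mmp15, which was not analysed, and Timp2. The array pattern of Timp2 differed in its brightest probe set. A dimmer Timp2 probe set did show the shared pattern, at 7.61, 8.83 and 9.03 in adult arrays against 9.39, 9.49 and 10.28 in E18 arrays. Whether the box goes with the pattern therefore cannot be read from these windows. A match describes letters only and does not show that a factor binds there.

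The arrays differed within the adult group, and this touched several results. Median probe set signal was 70.2 to 110 in adult arrays and 87.2 to 112 in E18 arrays, and Pearson's correlation across genes, a description since genes are not independent replicates, was 0.777 to 0.913 among adult arrays and 0.921 to 0.983 among E18 arrays. The median signal of 15 poly-A spike-in probe sets was 77.4, 282 and 20034 in adult replicates 1, 2 and 3 and 82.7, 43.0 and 13738 in E18 replicates 1, 2 and 3, so the third replicates of both groups stood apart. All 10 type II cell markers were at or above the floor on every array, and their median log2 signal was 11.47 to 12.56 by array. The brightest, Sftpc, a surfactant protein, read 14.50 to 14.67 in adult arrays and 13.90 to 14.17 in E18 arrays. Etv5 was dimmer, at 6.94, 8.72 and 9.47 in adult replicates 1, 2 and 3 against 11.07, 11.20 and 9.63 in E18 arrays. Of the 10 differences, 5 were below 0. The summed signal of 7 epithelial marker genes was 3970, 5381 and 55557 in adult replicates 1, 2 and 3, and 27500, 29635 and 32087 in E18 replicates 1, 2 and 3. That of 12 mesenchymal markers was 2463 to 14826 in adult arrays and 37955 to 64689 in E18 arrays, and that of 10 lymphocyte and leukocyte markers was 49882 to 103196 in adult arrays and 8308 to 16704 in E18 arrays. Of 10 type I cell markers, among them Pdpn, sorted for at E18, 5 were lower in adult arrays and 0 higher. Of all genes, 4.57% were lower and 1.41% higher. Of 10 type II cell markers 0 passed, where 5.98% of all genes did. Other sort markers were less clear. Epcam, sorted for in adults, had a lower mean in adult arrays (-1.41) and did not pass (limma adjusted p = 0.359). It differed by -2.83 in replicates 1 and 2 and by 1.42 in replicate 3. Muc1, sorted for at E18, did not pass either (-2.07, limma adjusted p = 0.206), with -3.32 in replicates 1 and 2 and 0.45 in replicate 3. Adult replicates 1 and 2 were the lowest of the arrays in epithelial markers and the highest in leukocyte markers. Where cells of another type are present, fewer such cells and less RNA per cell cannot be told apart in bulk RNA.

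At an adjusted p under 0.05, 3 of 5 proteases passed, each lower in adult cells, and 0 of 3 inhibitors did. Passing did not follow size alone. The inhibitor Timp3, at -3.18 (SE 1.07), differed more than Mmp11 and Mmp14, at -2.73 and -2.68 (SE 0.61 and 0.53). The other inhibitors, Timp1 and Timp2, differed less, at -1.26 and -0.85. Mmp2, Mmp11 and Mmp14 fell in the adult arrays, by 17.5-fold, 6.63-fold and 6.41-fold. Mmp9, Mmp23, Timp1, Timp2 and Timp3 did not pass. By limma's moderated test with Benjamini-Hochberg adjustment over all genes, 3 of 8 members were lower at an adjusted p under 0.05 and 0 were higher, where 5.98% of all genes passed in either direction, 4.57% were lower and 1.41% were higher. For 6 of 8 members every adult array was below every E18 array, where 28.9% of all genes tested were free of overlap in either direction and 18.8% were so with adult lower. Of these members, Timp3 overlapped after quantile normalization, and Timp2 did after centring of the arrays or with the mean of its probe sets, which left 5 in each case. The median difference over the members, adult minus E18 on the log2 scale, was -2.01, beside -0.17 over all genes tested, and 7 of 8 differences were below 0, beside 59% of all genes.

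**Figure D1:**
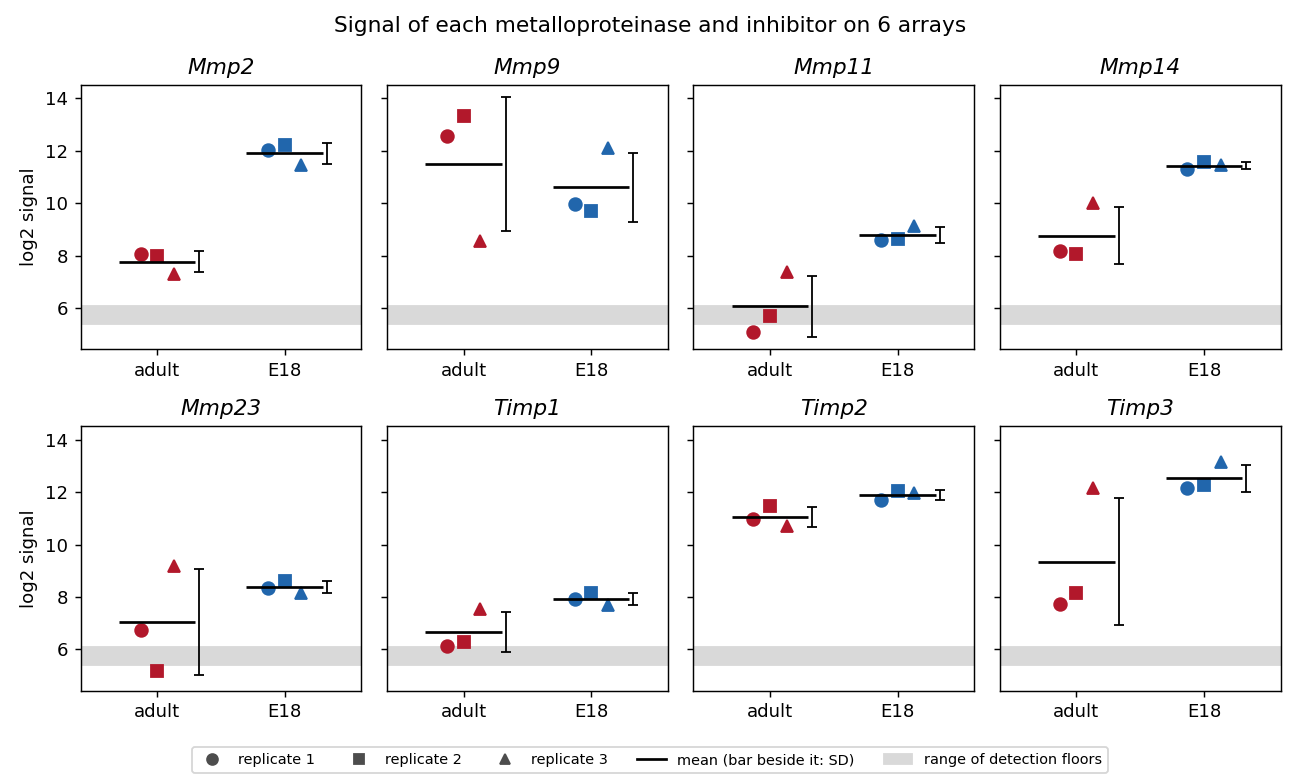
Log2 signal (vertical axis) of the 8 genes on 3 adult arrays (red, left) and 3 E18 arrays (blue, right), with symbols for the replicate, a line at the mean, a bar for the SD and a grey band for the range of the arrays' detection floors. Adult arrays lie below E18 arrays in 6 of 8 panels, and Mmp9 and Mmp23 overlap.

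Mmp2 encodes gelatinase A, which degrades denatured and type IV collagen and is made chiefly by mesenchymal cells. Its log2 signal was 8.05, 7.99 and 7.30 in adult replicates 1, 2 and 3, against 12.04, 12.23 and 11.45 in E18 replicates 1, 2 and 3. All adult arrays lay well below all E18 arrays, and both groups were tight, at 7.78 ± 0.42 and 11.91 ± 0.41 (SD, n = 3 each). The difference was -4.13 (SE 0.36, 95% interval -4.96 to -3.29, limma adjusted p = 0.00303), which ranked 16 among 13335 genes by p. A further probe set gave 6.98 to 7.997 in adult arrays and 11.49 to 12.21 in E18 arrays, a difference of -4.51. The size was -4.12 in replicates 1 and 2 and -4.15 in replicate 3, so it was alike in both sets of arrays. Of 12 mesenchymal markers 9 were lower and 0 higher, with a median of -3.64, where 4.57% of all genes were lower. Within the adult group their summed signal was 14826, 6947 and 2463 in replicates 1, 2 and 3. It fell in the same order as Mmp2, over a wider range. Endothelial, mesothelial and type I cell markers also had low medians, at -2.81, -2.46 and -2.37. The platelet-derived growth factor receptor Pdgfra, a defining mesenchymal marker, was named after its values were seen. It was at or above the floor in 2 of 3 adult arrays and all 3 E18 arrays. Its log2 signal was 7.72, 6.39 and 5.47 in adult replicates 1, 2 and 3, against 11.11, 11.06 and 10.68 in the E18 arrays. The Pdgfra difference was -4.43 (limma adjusted p = 0.00895). The part of these cell types in the result was not tested.

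Mmp14 encodes a membrane-anchored collagenase that activates proMMP2. Adult replicates 1, 2 and 3 stood at 8.19, 8.07 and 10.02 on the log2 scale, against 11.31, 11.56 and 11.45 in the E18 arrays. Adult replicate 3 was thus nearer to the E18 arrays than the other adult arrays were, although the groups did not overlap. The means were 8.76 ± 1.09 and 11.44 ± 0.13 (SD, n = 3 each) and the difference was -2.68 (SE 0.53, 95% interval -3.91 to -1.45, limma adjusted p = 0.0298). Within replicates 1 and 2 the difference was -3.30 and in replicate 3 it was -1.44. The call was lost without adult replicate 1 (limma adjusted p = 0.0870), adult replicate 2 (0.109), E18 replicate 1 (0.128), E18 replicate 2 (0.141) or E18 replicate 3 (0.0844), and over 19 alternatives the adjusted p ran from 9.63e-05 to 0.141.

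The remaining Mmp14 probe sets were dimmer and under the floor on all 3 adult arrays. Of these, the first read 7.16, 6.99 and 7.30 in E18 arrays, so the adult arrays were at least 2.64-fold lower, and the second read 7.02, 6.58 and 6.88 in E18 arrays, so the adult arrays were at least 2.11-fold lower. In a fit over all 23674 probe sets that reached the floor, limma's adjusted p was 0.0262 for the first and 0.0758 for the second. All 3 probe sets of Mmp14 were therefore lower in the adult arrays, and 2 of them passed. The dimmer probe sets did not have smaller differences in replicate 3. The first gave -3.25 in replicate 3 and -3.11 in replicates 1 and 2, and the second gave -3.01 and -2.48.

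Mmp11 encodes stromelysin-3, an MMP known from stromal cells and remodelling tissue that is secreted already active. Its log2 signal was 5.11, 5.71 and 7.38 in adult replicates 1, 2 and 3, the first of these under the floor of its array, against 8.62, 8.64 and 9.13 in the E18 arrays. Adult replicate 3 was again the highest adult array and still below every E18 array. The difference was -2.73 (6.07 ± 1.18 against 8.80 ± 0.29, SD, n = 3 each, SE 0.61, 95% interval -4.14 to -1.32, limma adjusted p = 0.0446). Replicate 3 gave -1.75 and the other replicates -3.22. The call lay close to the threshold: 8 of 19 alternatives ended it, including the omission of adult replicate 1 (limma adjusted p = 0.0982), adult replicate 2 (0.151), E18 replicate 1 (0.166), E18 replicate 2 (0.166) or E18 replicate 3 (0.118), and the adjusted p ran from 0.000274 to 0.166.

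Mmp23 encodes a short transmembrane MMP without the usual cysteine switch. Its log2 signal was 6.76, 5.19 and 9.19 in adult replicates 1, 2 and 3, against 8.35, 8.63 and 8.17 in the E18 arrays. Adult replicate 3 exceeded every E18 array while adult replicates 1 and 2 were below all of them. The difference of -1.33 did not pass (SE 0.91, 95% interval -3.45 to 0.78, limma adjusted p = 0.445), and replicate 3 gave 1.03 where the other replicates gave -2.51. A second probe set behaved alike, at 6.01, 3.48 and 8.87 in adult arrays and 8.65, 8.68 and 7.70 in E18 arrays. Without adult replicate 3 the difference was -2.41 and passed (limma adjusted p = 0.0171). Epithelial markers showed the same order, with 7 of 7 lower in adult replicates 1 and 2 than in the matching E18 arrays and 6 of 7 higher in adult replicate 3 than in E18 replicate 3, and their part in the result was not tested.

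Mmp9, or gelatinase B, degrades the same collagens as Mmp2 and is known as a protease stored in neutrophil granules and made by activated macrophages. It was the only member whose mean was higher in adult arrays, and it did not pass. Adult replicates 1, 2 and 3 stood at 12.58, 13.33 and 8.58 on the log2 scale, against 9.99, 9.70 and 12.12 in E18 replicates 1, 2 and 3. The highest and the lowest of the 6 arrays were both adult. The difference of 0.90 (SE 1.23, 95% interval -1.97 to 3.76, limma adjusted p = 0.719) joined 3.11 in replicates 1 and 2 and -3.54 in replicate 3, and the second probe set gave 4.36 and -5.57. In replicates 1 and 2 alone Mmp9 was higher in adult arrays (limma adjusted p = 0.00758), in a subset whose 2 E18 arrays were the most alike pair of all. Without adult replicate 2 the difference was -0.02 (limma adjusted p = 0.995).

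Of 10 neutrophil markers, 4 were above and below their own means on the same arrays as Mmp9: S100a8, S100a9, Cxcr2 and Csf3r. All 10 were below their means in adult replicate 3 and above them in E18 replicate 3, as Mmp9 was, while 6 of 10 were above them in adult replicate 1 and 5 of 10 in adult replicate 2. The granule protein genes Mpo, Elane and Ltf were below their means in both adult replicates 1 and 2, where Mmp9 was above its mean. Taking each gene as its departure from its mean over 6 arrays, Mmp9 stood at 1.53, 2.28 and -2.47 in adult replicates 1, 2 and 3 and at -1.07, -1.35 and 1.07 in E18 replicates 1, 2 and 3. The median departure of 10 neutrophil markers was 1.06, 0.26 and -2.33 in the adult arrays and -0.13, -0.29 and 2.28 in the E18 arrays. All 10 were lower in adult replicate 3 than in E18 replicate 3. By the mean of replicates 1 and 2, 7 of 10 were higher in adult than in E18 arrays. That count does not hold array by array: Camp and Ngp in adult replicate 2, and Mmp8 in adult replicate 1, were not higher. Their summed signal was 6612 to 135972 in adult arrays and 27006 to 110317 in E18 arrays, and 9 or 10 of the 10 were at or above the floor on each array. S100a8 and S100a9, the calcium-binding proteins that fill neutrophil cytoplasm, reached 16.01 and 15.43 in adult replicate 1, against 13.91 and 11.92 in E18 replicate 1. The part of neutrophil RNA in the Mmp9 signal was not tested. Mmp8, the neutrophil collagenase and 1 of these markers, read 9.33, 10.61 and 7.56 in adult arrays and 10.05, 9.68 and 12.64 in E18 arrays, with a difference of -1.62 that did not pass (limma adjusted p = 0.379).

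**Figure D2:**
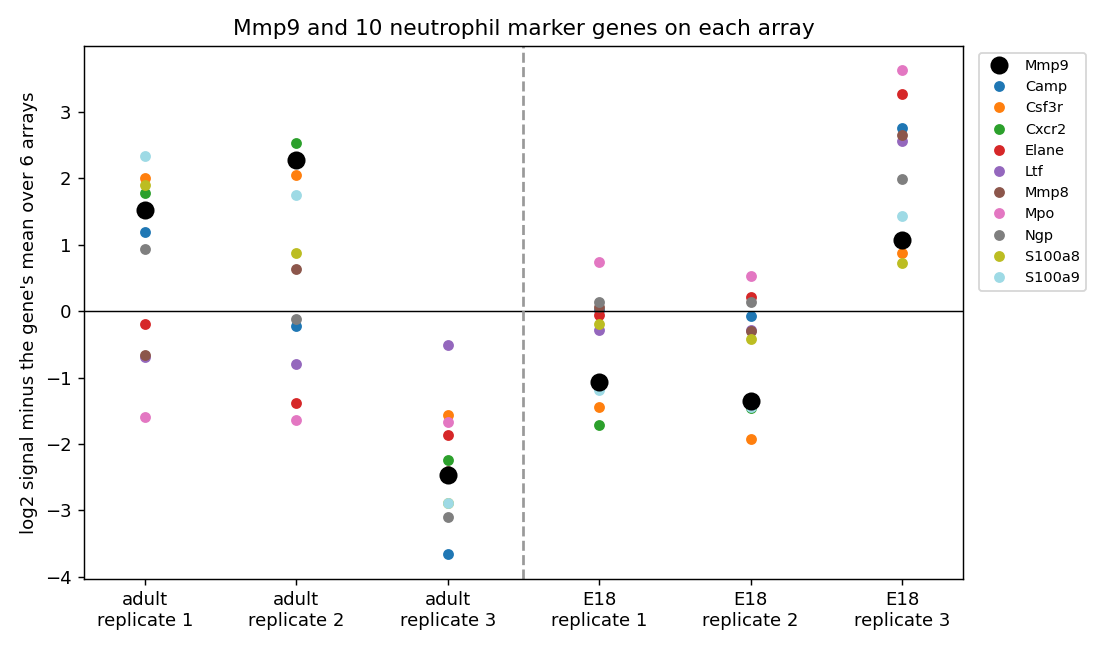
Departure of log2 signal from each gene's mean over 6 arrays (vertical axis) for Mmp9 (large black points) and 10 neutrophil markers (coloured points) on each adult array, left of the dashed line, and each E18 array. Mmp9 and all 10 markers are above their means in E18 replicate 3 and below them in adult replicate 3, and in adult replicate 1 Mmp9 and 6 of 10 markers are above.

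Among the inhibitors 0 of 3 passed by limma over all genes, while 3 of 3 had an unadjusted p under 0.05, as 21.6% of all genes did. In the brightest probe set of each, the adult arrays lay below the E18 arrays as deposited, with the exceptions under other scalings given above and, for Timp2, a probe set of the opposite direction. Timp3, the inhibitor that binds to the matrix and also blocks ADAM and ADAMTS proteases, read 7.74, 8.16 and 12.14 in adult replicates 1, 2 and 3 on the log2 scale, against 12.17, 12.27 and 13.13 in the E18 arrays. Adult replicates 1 and 2 lay far below the E18 arrays, while adult replicate 3 lay just under the lowest of them. The difference was -3.18 (9.34 ± 2.43 against 12.52 ± 0.53, SD, n = 3 each, SE 1.07, 95% interval -5.67 to -0.69, limma adjusted p = 0.141). Replicate 3 gave -0.99 and the other replicates -4.27. Omitting adult replicate 3 gave -4.57, which passed (limma adjusted p = 0.00125). With the third replicates as a block it also passed (-3.18, limma adjusted p = 0.0433), the only inhibitor to do so. Another 3 probe sets gave differences of -1.34, -4.06 and -2.93, all lower on every adult array.

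Timp1, a soluble inhibitor known to bind proMMP9, showed a similar order at lower signal. It read 6.15, 6.29 and 7.54 in adult arrays, against 7.92, 8.15 and 7.70 in E18 arrays. The gap between adult replicate 3 and the lowest E18 array was small beside the spread of the adult arrays. The difference was -1.26 (6.66 ± 0.77 against 7.92 ± 0.22, SD, n = 3 each, SE 0.48, 95% interval -2.37 to -0.15, limma adjusted p = 0.178), with -0.16 in replicate 3 and -1.81 in the other replicates. Omitting adult replicate 3 gave -1.70, which passed (limma adjusted p = 0.0138).

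Timp2, which inhibits MMPs and is part of the complex that activates proMMP2, showed the smallest difference of the 8 members. It read 10.96, 11.46 and 10.72 in adult replicates 1, 2 and 3, against 11.68, 12.03 and 11.98 in the E18 arrays. Adult replicate 3 was here the lowest adult array, unlike in the other inhibitors. The difference was -0.85 (11.05 ± 0.37 against 11.90 ± 0.19, SD, n = 3 each, SE 0.30, 95% interval -1.55 to -0.15, limma adjusted p = 0.155). It passed under 0 of 19 alternatives, with adjusted p from 0.103 to 0.502.

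Probe sets of Timp2 disagreed. Of 6, 1 was under the floor on all arrays, and 4 were lower in adult arrays on average, by -0.84 to -1.23. The remaining probe set was higher on every adult array, at 11.61, 11.79 and 11.24 against 10.73, 10.84 and 11.15 in the E18 arrays, a difference of 0.64 that did not pass in the fit over probe sets (limma adjusted p = 0.283). The direction of Timp2 therefore depends on the probe set. Over all members, 20 of 21 probe sets were tested, 17 differences were below 0, 3 were above 0 (both of Mmp9 and this probe set of Timp2), and 5 passed, where 4.44% of all probe sets passed.

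**Figure D3:**
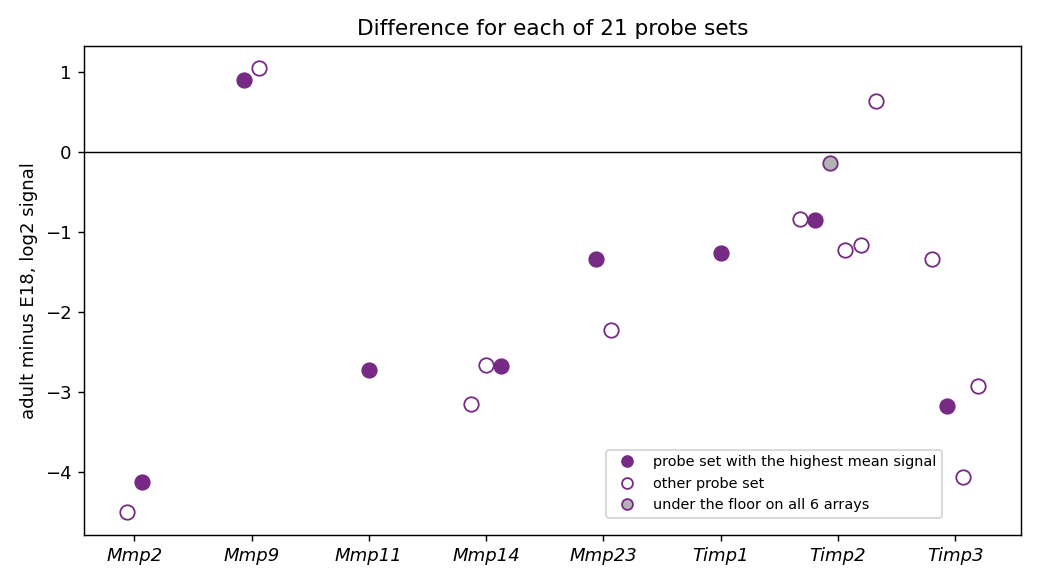
Adult minus E18 difference in mean log2 signal (vertical axis) for each of 21 probe sets of the 8 genes, with the probe set of highest mean signal filled. Probe sets of a gene lie on 1 side of 0 except those of Timp2, where 1 is at 0.64 and the others are below 0.

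The third replicates moved most of the members' differences. In the brightest probe sets, differences for Mmp11, Mmp14, Timp1 and Timp3 kept their sign and were smaller in replicate 3 than in replicates 1 and 2. The dimmer probe sets of Mmp14 were not smaller there. Differences for Mmp9 and Mmp23 changed sign, that for Mmp2 was alike and that for Timp2 was larger in replicate 3 (-1.25 against -0.65). No test was possible within replicate 3, with a single array in each group. In replicates 1 and 2 alone 7 of 8 members passed, all but Timp2, where 22.5% of all genes passed, and without adult replicate 3 there were 6, where 20.8% did. E18 replicates 1 and 2 were the most alike pair of arrays (Pearson's r across genes 0.983, next pair 0.928), so the spread of E18 in that subset was small. With these 2 arrays counted as 1 sample and the third replicates kept, 1 member passed.

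**Figure D4:**
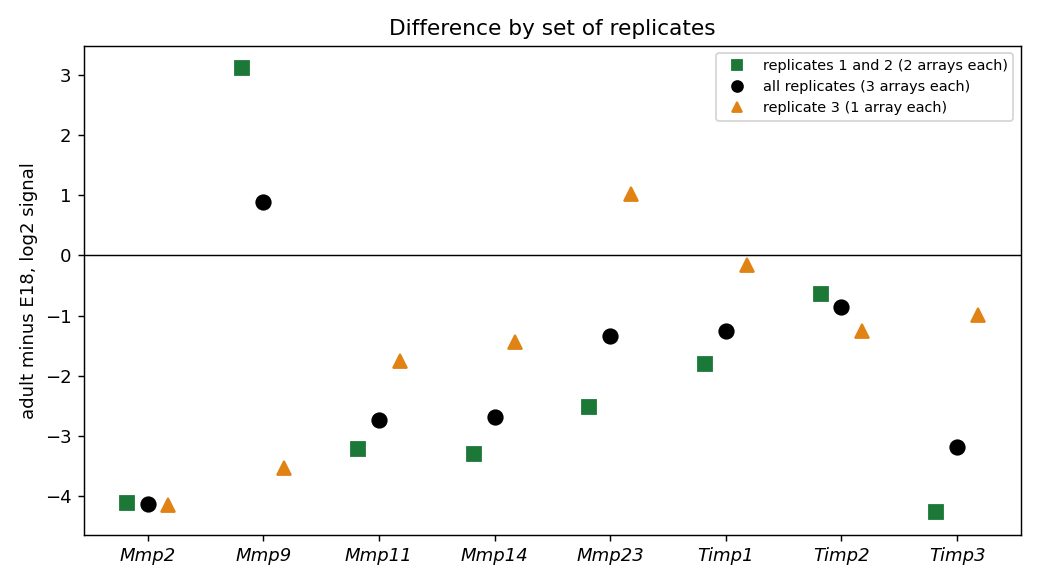
Adult minus E18 difference in log2 signal (vertical axis) for each of the 8 genes in replicates 1 and 2 (green squares), in all replicates (black circles) and in replicate 3 (orange triangles). Mmp2 holds near -4.1 in all sets, while Mmp9 is at 3.11 and -3.54 in the separate sets.

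Outside the 9 genes, none of the other MMP and TIMP family genes tested passed. Of 18 listed genes, 14 had a probe set and 9 were tested. By limma 0 of 9 passed and 0 had an unadjusted p under 0.05, where 5.98% and 21.6% of all genes did. Their median difference was 0.38. Besides Mmp8, the brightest was Mmp19, an MMP of wide tissue distribution, at 7.73 ± 0.35 in adult arrays and 8.03 ± 0.54 in E18 arrays (SD, n = 3 each, difference -0.31, 95% interval -1.27 to 0.65, limma adjusted p = 0.710). Mmp1a, Mmp1b, Mmp7, Mmp13 and Mmp20 did not reach the floor often enough to be tested. The intervals of the other genes were wide, and a difference of moderate size in them was not detectable with 3 arrays a group.

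**Figure D5:**
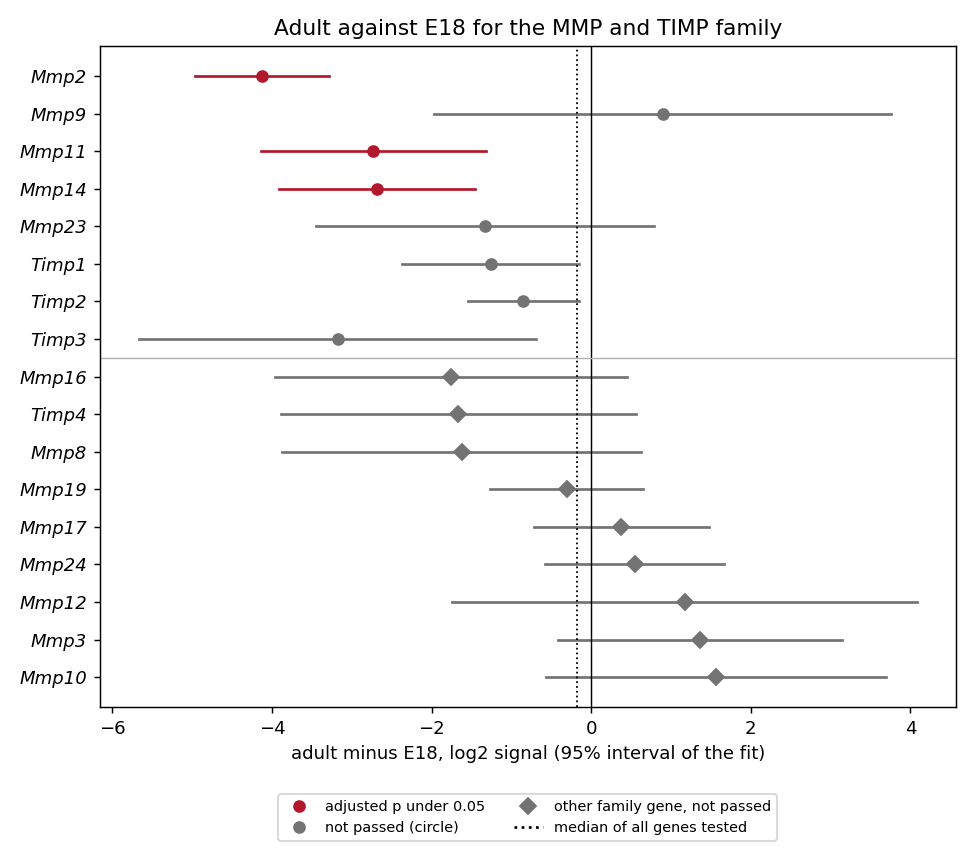
Adult minus E18 difference in log2 signal (horizontal axis) with its 95% interval for the 8 genes (circles) and 9 other family genes (diamonds), with red for an adjusted p under 0.05 and a dotted line at the median of all genes, -0.17. Mmp2, Mmp11 and Mmp14, at -4.13, -2.73 and -2.68, passed, and none of the 9 diamonds did.

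The ADAMTS family are secreted relatives of the MMPs that cut proteoglycans and process procollagen. Among 12 tested, 4 genes fell and 0 rose, where 4.57% of all genes were lower, and the median was -1.78. Adamts1, which cleaves versican, fell by 4.38 (7.66 ± 0.72 in adult arrays against 12.04 ± 0.60 in E18 arrays, SD, n = 3 each, limma adjusted p = 0.00567), and Adamts9, another versicanase, fell by 4.21 (limma adjusted p = 0.00669). Adamts15 differed by -2.39 (limma adjusted p = 0.0288), and Adamts3, which processes procollagen, was under the floor on all adult arrays and at least 2.63-fold lower (limma adjusted p = 0.0357). Among the membrane-bound ADAM sheddases, 0 of 8 passed by limma and the median was -0.13. Of these 8, 3 had an unadjusted p under 0.05, where 21.6% of all genes did. Adam10, a sheddase of Notch and cadherins, stood at 12.14 ± 0.36 in adult arrays and 12.66 ± 0.12 in E18 arrays (limma adjusted p = 0.338), and Adam9 differed by -0.92 (limma adjusted p = 0.173).

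Activators and regulators of MMPs held 5 genes that fell and 0 that rose among 17 tested, where 4.57% of all genes were lower. Their median was -1.19. Reck, a membrane-anchored inhibitor of MMP2, MMP9 and MMP14, read 8.05, 7.87 and 7.27 in adult arrays, against 10.90, 10.89 and 10.37 in E18 arrays. Its difference was -2.99 (SE 0.35, limma adjusted p = 0.00698). The proprotein convertase Pcsk5 fell by 3.60 (limma adjusted p = 0.0111), the protease inhibitor Tfpi2, under the floor on all adult arrays, was at least 3.07-fold lower (limma adjusted p = 0.0171), and Thbs2, a matricellular protein that takes MMP2 up for clearance, fell by 1.98 (limma adjusted p = 0.0480). The fifth was the plasminogen activator Plat (-1.72, limma adjusted p = 0.04997), and Furin, the convertase that opens proMMP14, differed by 0.12 (95% interval -0.69 to 0.92, limma adjusted p = 0.876), both named after their values were seen.

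Matrix proteins that MMPs cut fell in 11 of 14 cases and rose in 0, where 4.57% of all genes were lower. Their median was -3.90. The fibrillar collagen chain Col1a1 fell by 5.14 (limma adjusted p = 0.0184), the basement membrane linker Nid1 by 4.44 (0.0229), the type IV collagen chain Col4a2 by 4.29 (0.00303) and Eln, the elastin gene, by 4.29 (0.00895). Col1a1, Col1a2, Col3a1 and Dcn are also in the mesenchymal marker list. Endothelial markers were lower for 4 of 10 genes with a median of -2.81, and mesothelial markers for 3 of 5 with a median of -2.46, beside the same 4.57%. Their part in these differences was not tested. Of the 13 genes given with values from these lists that passed, leaving out adult replicate 1 ended 3 calls, adult replicate 2 ended 7, adult replicate 3 ended 0, E18 replicate 1 ended 10, E18 replicate 2 ended 10 and E18 replicate 3 ended 6. The calls of Adamts1 and Col4a2 held in all 19 alternatives, while Plat lost its call in 14 of 19, Thbs2 in 11 of 19 and Adamts3 in 10 of the 17 in which it was tested. Quantile normalization and centring of the arrays each ended these 3 calls. Quantile normalization also ended that of Adamts15 (limma adjusted p = 0.0581). The direction of each held.

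Genes with the most similar profile over the 6 arrays were named as a description, by Pearson's r with no test. Arrays, labels and groups are shared by all genes, and 27 to 449 genes exceeded an r of 0.95 with a given member, so such values are common. For Mmp2 they were Mfap5, a microfibril protein, Reck and Ccdc3 (r = 0.999, 0.999 and 0.998). For Mmp9 they were Trem3, a receptor of myeloid cells, Arg2 and Pla2g7 (0.996, 0.995 and 0.995). Those nearest to Mmp14 were Ctsf, a lysosomal cathepsin, Perp and Ajuba (0.999, 0.998 and 0.997), and those nearest to Mmp11 were Arfgef3, Dab2 and Clic5 (0.997, 0.996 and 0.995). Timp3 was nearest to Snx24, AA986860 and Epb41l1 (0.998 each), Timp1 to Zfp629, Zcchc14 and Fzd8 (0.998, 0.997 and 0.997), Mmp23 to Ppara, Tubg1 and Mipol1 (0.997, 0.997 and 0.996) and Timp2 to Ddx11, Fance and Eif5b (0.985, 0.981 and 0.978).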

How the data were processed

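The authors deposited a linear signal intensity for each probe set, and the submitters' processing notes name Affymetrix Expression Console and MAS5. The arrays had been scaled alike: with 2% of values trimmed at each end, their means were 500.0025 to 500.0044. RNA of each of the 6 samples was amplified in 2 cycles and labelled with biotin, per the labels' protocols.

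The deposited intensities, all above 0, were put on the log2 scale without a pseudocount or another scaling. The array's gene table gave 1 symbol to 34945 of 45101 probe sets, several to 932 and none to 9160, and 64 were controls. Each of 18193 genes was read from its brightest probe set by mean log2 signal. The detection floor was the 40th percentile of an array's signals (42.3 to 66.5 in adult arrays and 50.2 to 68.6 in E18 arrays), a rank and not a measured background, and the 13335 genes that reached it on 3 or more arrays were tested. For genes under it throughout a group, folds were computed against the floor and written "at least". The test was limma 3.58.1 in R 4.3.3 (lmFit, eBayes with an intensity trend, two-sided, Benjamini-Hochberg over all genes tested). The number of arrays limits the precision. The labels call the samples biological replicates, without saying whether they came from separate animals.

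All members were named, with up to 4 passing genes of each related list by size, or the brightest 2 where fewer than 2 passed, and the 3 nearest profiles. Members and lists were chosen with earlier results of these data known. Same-numbered samples did not deviate together (r = 0.036, -0.14 and -0.058 across genes), so they were not treated as pairs. Promoters came from RefSeq (GRCm38.p6). The 19 alternatives covered scaling, filters, probe set choice, blocks, weights and omitted arrays.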

Additional observations from a re-analysis of the deposited data

How the results depend on the processing

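Over 19 alternatives the direction of 7 of the 8 members held, Mmp2 passed in all 19, Mmp14 in 13 and Mmp11 in 11. The number of members that passed was 3, and it was 1 to 6 when 1 array was left out (6 without adult replicate 3 and 1 without any other), 7 in replicates 1 and 2 alone, 7 with array weights and 1 with E18 replicates 1 and 2 counted as 1 sample. With the replicate block 2 members passed, Mmp2 and Mmp14 (Mmp11 had a limma adjusted p of 0.0501), and 492 genes passed beside 798. With the third replicates as a block 4 members passed, Mmp2, Mmp11, Mmp14 and Timp3 (limma adjusted p = 0.0433), and 897 genes did. The count of genes was 66 to 2770 when 1 array was left out (omitting adult replicate 1, 2 or 3 gave 572, 226 or 2770, and omitting E18 replicate 1, 2 or 3 gave 69, 66 or 505), 2996 in replicates 1 and 2 alone, 63 with E18 replicates 1 and 2 counted as 1 sample and 4916 with array weights, which gave E18 replicate 1 a weight of 11.7 and adult replicate 3 one of 0.169. For the pathway lists 20 genes passed, beside 5 to 28 when 1 array was left out, 4 with E18 replicates 1 and 2 counted as 1 sample and 36 with array weights. The members' median difference was -2.87 to -1.71 over all 19. The difference of Mmp9 was -0.0226 to 2.35 when 1 array was left out, the lowest without adult replicate 2 and the highest without adult replicate 3, that of Mmp8 was 0.10 in replicates 1 and 2 alone and 0.11 with array weights, and the median of the other family genes was -0.31 with a floor at the 50th percentile and -0.36 to 0.45 when 1 array was left out, the lowest without adult replicate 3. The cause was not tested. The median over all genes was -0.17 as deposited, -0.05 once quantile normalized and -0.02 once median centred, and relative to these Mmp2, Mmp11 and Mmp14 stayed lower. Genes near the floor, such as Mmp11 in adult replicates 1 and 2, are limited by signal over background.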

Other observations

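Mmp12, the macrophage elastase, was bright on a single array. It read 5.35, 7.43 and 10.97 in adult replicates 1, 2 and 3 on the log2 scale, against 6.31, 6.83 and 7.10 in the E18 arrays, and its difference of 1.17 did not pass (limma adjusted p = 0.636). Adamts5, an aggrecanase, showed the same array as the highest, with 5.87, 6.07 and 10.46 in adult replicates 1, 2 and 3 and 8.37, 8.26 and 8.75 in the E18 arrays. Adam12, a protease of mesenchymal cells, read 3.75, 4.02 and 6.16 in adult arrays and 9.19, 9.20 and 6.80 in E18 arrays, where E18 replicate 3 was the lowest of its group (difference -3.75, limma adjusted p = 0.0527). Adam8, a protease of leukocytes, read 11.67, 12.64 and 12.10 in adult arrays and 9.47, 9.33 and 11.60 in E18 arrays, with no overlap and a difference of 2.00 (limma adjusted p = 0.115). These genes were chosen after their values were seen, and no explanation was tested.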
